A study of Mus musculus with 15 samples.

Results

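Of 19933 genes measured in 5 lines of G1E cells, 28 stood at least 2-fold away from WT in the D218Y line and close to WT in the other 3 mutant lines. Of these, 19 were raised and 9 were lowered. The raised genes were led by Tpsab1, a mast cell tryptase, Ms4a2, the beta chain of the high-affinity IgE receptor, the lectin gene Lgals9 and Rgs13, a regulator of G-protein signalling. The lowered genes were led by Pim1, a survival kinase, and Abcb10, a mitochondrial transporter of haem synthesis, and they included Nprl3 and Hbq1a, which lie in the alpha-globin neighbourhood.

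The genes were chosen from the measured values themselves. Each gene's mean in a mutant line minus its mean in WT, on the log2 scale, had to be at least 1 in size in D218Y and under 0.25 in size in each of R216Q, R216W and D218G. A difference of 1 is a 2-fold change, and 0.25 is 1.19-fold. All 4 of these comparisons were used by the choice, so the members' differences in them are given as a description, with no p-value, and nothing is read from how many passed a test in them. The 28 genes made up 3.94% of the 711 genes at least 2-fold away from WT in D218Y, with 4.03% of the 471 that were up and 3.75% of the 240 that were down. Those 471 and 240 genes were 2.36% and 1.2% of all genes. In all, 16205 genes, or 81.3%, were within the limit of 0.25 in the other 3 mutant lines.

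G1E is a mouse proerythroblast line that lacks GATA1 and can resume red cell differentiation when GATA1 is given back. All 5 lines carried GATA1 fused to the estrogen receptor's ligand-binding domain, with the mutation D218Y, R216Q, R216W or D218G, or as WT, and all were treated with 100 nM estradiol for 24 h. Total RNA of 3 biological replicates per line was measured on Affymetrix mouse arrays, 15 in all. The labels do not say how many independent lines each construct stands for, so a line's own features and its mutation cannot be told apart. Untreated cells were not analysed here.

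GATA1 is a zinc finger transcription factor that activates red cell genes and represses genes of the progenitor state. The mutated residues lie in its amino-terminal zinc finger, a domain for binding both DNA and the partner protein FOG1, and changes at these residues are found in inherited human disorders of red cells and platelets. Mast cells come from related progenitors and depend on GATA factors too. Their hallmark genes encode granule proteases, enzymes that make histamine, serotonin and heparin, and the receptor for IgE.

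Array medians were 6.24 to 6.29 in D218Y, 6.32 to 6.38 in R216Q, 6.32 to 6.36 in R216W, 6.25 to 6.40 in D218G and 6.31 to 6.41 in WT, and the median difference from WT over all genes was -0.07 in D218Y. With each array's median subtracted, 24 genes met the rule as raised and 5 as lowered. D218G replicate 3, at 6.25, stood apart from the other D218G arrays, and without it 30 genes met the rule as raised. Gata1 averaged 12.07 in D218Y, 12.15 in R216Q, 12.25 in R216W, 12.35 in D218G and 12.36 in WT, and D218Y was 0.29 lower than WT (adjusted p = 1.12e-06, limma). The labelled cell type was checked against marker lists. The mean level of 6 erythroid markers was 8.17 to 8.24 in the D218Y arrays, 9.96 to 10.49 in the other mutants' arrays and 10.82 to 10.88 in WT, and that of 5 progenitor markers was 9.87 to 9.91 in D218Y, 8.28 to 8.89 in the other mutants and 7.88 to 7.98 in WT. Those progenitor markers are part of a wider list of 24 measured genes, of which 8 were higher and 3 lower in D218Y than in WT (adjusted p under 0.05, limma), with a median difference of 0.02. The mean level of 3 megakaryocyte markers was 6.30 to 6.39 in D218Y, 6.48 to 6.96 in the other mutants and 7.14 to 7.18 in WT, with no overlap. Of these markers, Gp9 differed most between D218Y and WT, by -1.93. Itga2b differed by -0.38 and Pf4 by -0.10 (adjusted p = 0.00025 and 0.145, limma). Of 16 measured genes on a wider megakaryocyte list, 2 were higher and 6 lower in D218Y than in WT. Their median difference was -0.15, and 20.3% of all genes were higher and 24.2% lower. Granulocyte and monocyte markers (5.31 to 5.44 in D218Y, 5.36 to 5.59 in the other mutants, 5.41 to 5.64 in WT) and lymphoid markers (5.38 to 5.44, 5.39 to 5.54 and 5.40 to 5.59 in the same order) overlapped between the lines. The mean level of 5 stroma markers was 6.434 to 6.587 in D218Y and 6.461 to 6.808 in the other mutants. In WT it was 6.591 to 6.742, just above the D218Y range. The mean levels of the erythroid, progenitor and megakaryocyte markers moved with D218Y, and their part in the members' differences was not tested. In such bulk RNA a change in the number of cells of a type and a change in RNA per cell cannot be told apart.

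**Figure D1:**
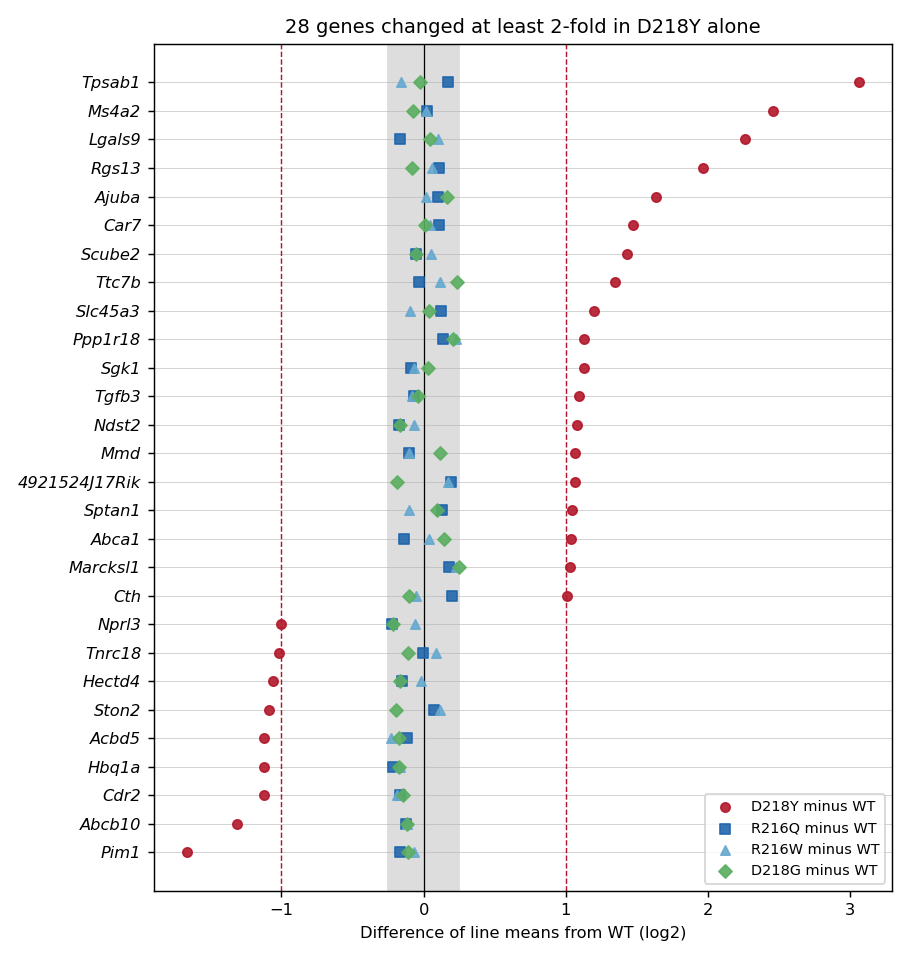
Difference from WT on the log2 scale (x axis) for each of the 28 genes (rows) in D218Y, R216Q, R216W and D218G, each point a mean of 3 arrays minus the WT mean of 3 arrays. The D218Y points run between -1.66 and -1.0 for the 9 lowered genes and between 1.01 and 3.06 for the 19 raised genes, and the other points lie within 0.25 of 0 by the rule that chose the genes.

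Tpsab1 had the largest difference of the 28 genes, 3.06 in D218Y, which is 8.34-fold and the 11th largest rise of all genes. Its WT mean of 5.30 lay at percentile 26 of all genes, so low signal limits this fold. Its arrays read 8.45, 8.25 and 8.36 in D218Y, 5.11 to 5.52 over the 9 arrays of the other mutants, and 5.37, 5.15 and 5.36 in WT. The lowest D218Y array was thus 2.73 above the highest array of any other line, and the differences from WT were 0.17 in R216Q, -0.16 in R216W and -0.02 in D218G. Tpsab1 has a close relative, Tpsb2, a mast cell tryptase too, and the array's reading of such relatives is uncertain. Tpsb2 averaged 5.6 in D218Y and 5.69 in WT, a difference of -0.09 (adjusted p = 0.261, limma).

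Ms4a2, which amplifies the signal of the IgE receptor, read 6.54, 6.36 and 6.78 in D218Y, 4.0 to 4.21 over the other mutants' arrays, and 4.12, 4.02 and 4.16 in WT. The D218Y arrays stood apart from all others, by a mean of 2.46 over WT, while the other mutants' arrays overlapped those of WT. The WT level is among the lowest on the arrays, so no fold is given. The 2 other receptor chains did not pass the test between D218Y and WT, with differences of -0.00 for Fcer1a, the chain that binds IgE (adjusted p = 0.98, limma), and -0.05 for Fcer1g, the signalling chain (adjusted p = 0.643). Fcer1a averaged 4.06 in D218Y and 4.06 in WT, among the lowest levels on the arrays in both lines. Of the 18 other genes measured whose symbols start with Ms4a, 0 were higher and 2 were lower in D218Y at an adjusted p under 0.05, where 20.3% and 24.2% of all genes were, and they ranged from -0.30 to 0.06.

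Rgs13, which limits degranulation of mast cells in mice, read 6.42, 5.91 and 5.72 in D218Y, 3.93 to 4.22 over the other mutants' arrays, and 4.06, 3.94 and 4.16 in WT. Its replicates in D218Y spread more than those of the other raised genes (6.01 ± 0.36, SD, n = 3), but the lowest stood 1.49 above every array of another line. The difference from WT was 1.96, with WT again among the lowest levels on the arrays. Of the 19 other Rgs genes, which share the domain that speeds the shut-off of G proteins, 3 were higher and 3 lower in D218Y, against 20.3% and 24.2% of all genes. They included Rgs19 at 1.62 (adjusted p = 3.81e-11), Rgs18 at -2.17 (7.02e-10) and Rgs12 at -1.61 (2.84e-11). Rgs18 was also -1.34 from WT in R216Q and -1.63 in D218G, and it was 0.99 above WT in R216W.

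The upstream sequences of Ms4a2 and Rgs13 are shown because they hold more GATA letters than the other members' sequences that RefSeq lists. The window was the 250 bases before each listed start on GRCm38.p6, and the letters searched were AGATAA and TGATAA, and also AGATAG and TGATAG, on both strands, with overlapping matches counted. Capitals mark the matches, and a match on the other strand appears as its reverse complement.
Ms4a2, chr19:11623720-11623969, minus strand: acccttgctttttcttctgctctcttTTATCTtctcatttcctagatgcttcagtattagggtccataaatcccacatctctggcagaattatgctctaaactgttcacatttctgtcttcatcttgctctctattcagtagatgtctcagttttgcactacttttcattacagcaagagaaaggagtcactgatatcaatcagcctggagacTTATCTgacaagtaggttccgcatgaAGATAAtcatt
Rgs13, chr1:144177373-144177622, minus strand: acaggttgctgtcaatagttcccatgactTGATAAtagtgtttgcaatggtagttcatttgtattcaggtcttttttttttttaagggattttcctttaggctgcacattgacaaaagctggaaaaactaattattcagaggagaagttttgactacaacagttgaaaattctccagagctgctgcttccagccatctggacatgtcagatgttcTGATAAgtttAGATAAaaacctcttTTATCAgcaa
Ms4a2 had 3 matches, which began 224, 37 and 11 bases before the listed start, and 1.35% of all 32851 listed promoters had at least 3. Rgs13 had 4, at 221, 35, 25 and 10 bases, and 0.21% of promoters had at least 4. Both were picked as the highest among the members, so these shares do not measure how unusual they are. Over the members with an entry, 6 of the 16 raised genes (37.5%) and 2 of the 9 lowered genes (22.2%) had a match in at least 1 listed promoter, beside 29.7% of the 27025 genes listed. A match of letters describes the sequence and does not show a bound site.

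Of 18 genes on a mast cell list, 17 were measured, and of the 15 that are no members 4 were higher and 4 were lower in D218Y than in WT at an adjusted p under 0.05, beside 20.3% and 24.2% of all genes, and 7 did not pass. Their median difference was -0.09, beside -0.07 over all genes. The rises were in Tph1, an enzyme of serotonin synthesis, by 3.30 ± 0.07 (SE, n = 3 per line, adjusted p = 6.85e-14, limma), in Hdc, the histamine-forming enzyme, by 1.11 ± 0.06 (1.94e-09), in Cpa3, a granule carboxypeptidase, by 0.65 ± 0.07 (2.17e-06), and in Srgn, the proteoglycan core of granules, by 0.26 ± 0.10 (0.0431), a call lost in 9 of 22 alternative settings. Tph1 was also 2.58 above WT in R216Q and 2.65 above WT in R216W, and Hdc was 0.35 above WT in R216Q, which kept both outside the rule. Cpa3 was within 0.08 of WT in the other mutants and failed the rule on the size of its D218Y rise alone. Under quantile normalization, cyclic loess or subtracted array medians, 1 of the 15 was called lower in place of 4. Among the falls, Mcpt2, a mast cell protease, averaged 3.77 in D218Y and 4.44 in WT (adjusted p = 3.4e-06), close to the lowest values on the arrays. Against the mean of the other 3 mutants, 3 of the 15 were higher and 2 lower in D218Y, where 19.1% and 20.7% of all genes were: Tph1 by 1.60 (adjusted p = 1.94e-11), Hdc by 0.99 (1.02e-09) and Cpa3 by 0.68 (1.56e-07) were the higher ones. The mean level of 4 mast cell markers that are no members (Cpa3, Mcpt8, Fcer1a and Tpsb2) was 4.99 to 5.05 in the D218Y arrays, 4.83 to 4.98 in those of the other mutants and 4.89 to 4.97 in WT. Of these 4, Cpa3 alone was called higher in D218Y than in WT, and Mcpt8 was at -0.17 (adjusted p = 0.141, limma).

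**Figure D2:**
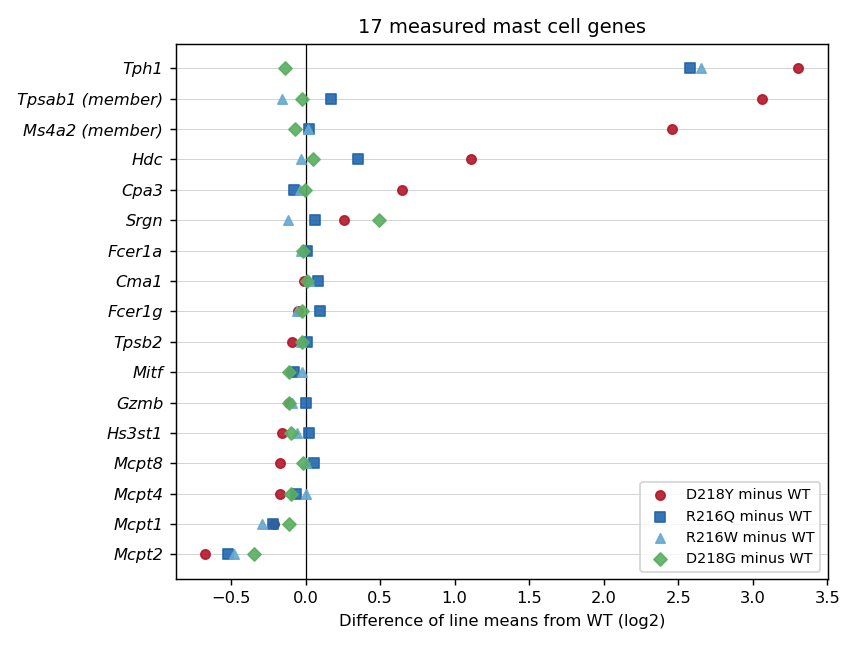
Difference from WT on the log2 scale (x axis) of the 17 measured mast cell genes (rows) in D218Y, R216Q, R216W and D218G, each point a mean of 3 arrays minus the WT mean of 3 arrays. Tpsab1 and Ms4a2 are far from 0 in D218Y and close to it in the other mutants, Tph1 is also far from 0 in R216Q and R216W, and all points of Fcer1a and Tpsb2 lie near 0.

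Ndst2, the sulphotransferase that mouse mast cells need to make heparin, was on no fixed list. It read 11.45, 11.42 and 11.44 in D218Y, 10.09 to 10.32 over the other mutants' arrays, and 10.36, 10.36 and 10.34 in WT. The D218Y arrays were apart from the rest, and the other mutants' arrays all lay below those of WT. Its relatives Ndst3 and Ndst4 did not pass the test between D218Y and WT.

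Among genes for secreted and cell-surface signals, Lgals9 encodes galectin-9, a lectin that binds cell-surface sugars. It read 10.76 in each of the 3 D218Y arrays, 8.23 to 8.64 over the other mutants' arrays, and 8.55, 8.47 and 8.48 in WT. The difference of 2.26 was 4.78-fold, and the D218Y arrays agreed more closely with each other than those of any other raised gene. The related Lgals1 moved the other way, with 11.31 in D218Y and 12.37 in WT, a difference of -1.06 ± 0.04 (SE, n = 3 per line, adjusted p = 1.3e-11, limma).

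Tgfb3 encodes a ligand of the TGF-beta receptors. It read 6.71, 6.72 and 6.71 in D218Y, 5.51 to 5.6 over the other mutants' arrays, and 5.6, 5.59 and 5.67 in WT. The groups were far apart for its small spread, with a difference of 1.09. Of the 27 other genes on a list of TGF-beta and BMP signalling, 9 rose and 5 fell in D218Y, beside 20.3% higher and 24.2% lower among all genes, with a median difference of -0.07, equal to that of all genes. Skil, a repressor of SMAD proteins, rose by 1.04 (adjusted p = 9.79e-08, limma), Id1, a target of BMP signals, by 0.97 (8.94e-10), and Smad2, which carries the signal of TGF-beta receptors, by 0.46 (5.15e-05), while Smad6, an inhibitor of BMP signals, fell by 0.57 (0.0024). Of the other ligands, Tgfb1 differed by 0.41 (6.78e-07) and Tgfb2 by 0.01 (0.928). Id1 did not follow the members' pattern, since it was -1.02 from WT in R216W.

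Scube2, a secreted protein that helps release Hedgehog ligands, read 8.68, 8.55 and 8.46 in D218Y, 6.92 to 7.19 over the other mutants' arrays, and 7.09, 7.09 and 7.21 in WT. Its D218Y arrays were all at least 1.25 above the rest, and the mean difference was 1.43.

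Ajuba and Ttc7b are scaffold proteins, of the Hippo pathway and of the kinase complex that makes phosphatidylinositol 4-phosphate at the plasma membrane. Ajuba read 7.06, 6.92 and 6.90 in D218Y, 5.29 to 5.56 over the other mutants' arrays, and 5.35, 5.31 and 5.31 in WT, a difference of 1.64. Ttc7b read 9.13, 9.03 and 9.05 in D218Y, 7.64 to 8.06 over the other mutants' arrays, and 7.78, 7.67 and 7.74 in WT, a difference of 1.34. Both were clear of the other lines in D218Y, and both were also above WT in D218G, by 0.17 and 0.23.

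Ppp1r18 encodes phostensin, which brings protein phosphatase 1 to actin, and it read 7.84, 7.76 and 7.59 in D218Y, 6.69 to 6.88 over the other mutants' arrays, and 6.48, 6.59 and 6.73 in WT. It was 1.13 above WT in D218Y, and it was also above WT in R216Q by 0.14, in R216W by 0.23 and in D218G by 0.21. Marcksl1, an actin-binding substrate of protein kinase C, had the smallest gap of all 28 genes: its lowest D218Y array of 6.55 was 0.31 above the highest array elsewhere, D218G replicate 3. Sptan1, the alpha spectrin of cells other than red cells, was 1.04 above WT in D218Y.

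Car7, a carbonic anhydrase, read 8.34, 8.12 and 7.86 in D218Y, 6.55 to 6.93 over the other mutants' arrays, and 6.57, 6.59 and 6.74 in WT. The difference was 1.47, with no overlap between D218Y and the rest. Of the 15 other Car genes, 2 were higher in D218Y, among them Car1, a form made by red cells, at 1.03 (adjusted p = 4.87e-11, limma), and 3 were lower, beside 20.3% and 24.2% of all genes. Slc45a3, a sugar transporter, read 8.02, 7.58 and 7.76 in D218Y, 6.42 to 6.75 over the other mutants' arrays, and 6.54, 6.47 and 6.77 in WT. Abca1, which exports cholesterol, read 8.21, 8.29 and 8.18 in D218Y, 7.0 to 7.50 over the other mutants' arrays, and 7.24, 7.15 and 7.17 in WT. Neither overlapped with the other lines, and their differences were 1.2 and 1.04. Among the 15 other Abca genes, Abca7 went the other way at -1.59 (adjusted p = 2.5e-13). Cth, an enzyme of cysteine synthesis, was the closest of the raised genes to the limit at 1.01.

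The remaining raised genes were Sgk1, a kinase induced by serum and glucocorticoids, at 1.13, Mmd, a gene named for its rise as monocytes become macrophages, at 1.07, and 4921524J17Rik at 1.06. Sgk1 read 8.37, 8.32 and 8.33 in D218Y, against 7.18, 7.28 and 7.17 in WT. In the RefSeq gene order Sgk1 lies 3 genes from Myb, a progenitor transcription factor that was 1.85 higher in D218Y than in WT (adjusted p = 1.9e-14, limma) and above WT in the other 3 lines too.

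**Figure D3:**
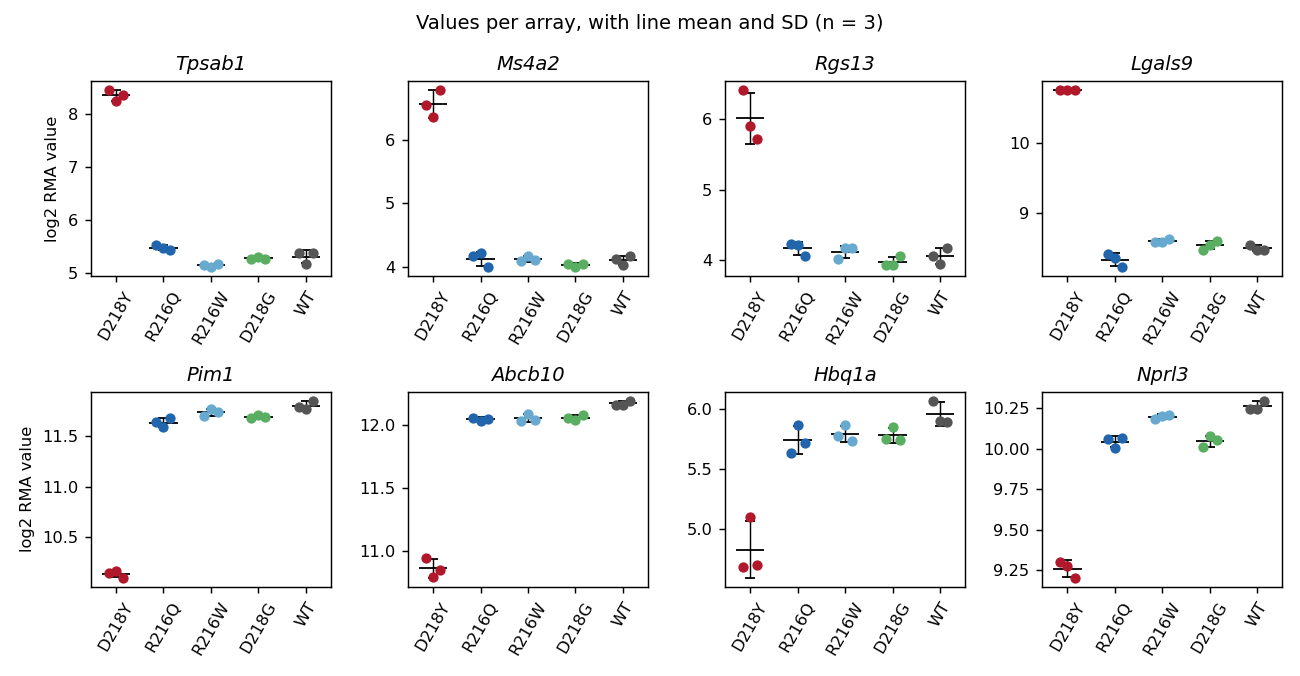
Level on the log2 scale in each of the 15 arrays (points) with the mean and SD of each line (bars, n = 3) for 4 raised genes (Tpsab1, Ms4a2, Rgs13, Lgals9) and 4 lowered genes (Pim1, Abcb10, Hbq1a, Nprl3), D218Y at the left and WT at the right. The D218Y points are apart from those of all other lines in every panel, and the 3 Rgs13 points are the most spread.

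Pim1, a kinase that promotes survival and is induced through STAT5 by cytokines such as erythropoietin, was the most lowered gene. It read 10.15, 10.17 and 10.10 in D218Y, 11.59 to 11.76 over the other mutants' arrays, and 11.78, 11.77 and 11.85 in WT. The D218Y mean was 68.4% lower than that of WT on the linear scale, a difference of -1.66, and the lowest WT array was only just above the highest of the other mutants. The related kinases did not share this: Pim2 differed by 0.26 (adjusted p = 0.000454, limma) and Pim3 by 0.04 (0.532).

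Abcb10, a transporter of the mitochondrial inner membrane that GATA1 induces and that haem synthesis in red cell precursors needs, read 10.94, 10.79 and 10.85 in D218Y, 12.03 to 12.09 over the other mutants' arrays, and 12.16, 12.16 and 12.19 in WT. Its D218Y mean was 59.7% lower than that of WT, a difference of -1.31. The other mutants lay between -0.12 and -0.11, with every array just below those of WT. The haem synthesis list had 9 other measured genes, of which 8 fell and 1 rose in D218Y, where 24.2% of all genes were lower and 20.3% higher. Alas2, the first enzyme of the path in red cells, fell by 3.18 (adjusted p = 1.64e-14, limma), Uros by 1.65 (6.65e-14), Alad by 1.17 (4.71e-13) and Slc25a39, a mitochondrial carrier, by 1.10 (1.88e-12). The same counts, 8 lower and 1 higher, held against the mean of the other 3 mutants. The list was also low in those mutants. Of the 9 genes, 8 were lower than WT in R216Q, 5 in R216W and 7 in D218G, beside 9.65%, 7.23% and 7.77% of all genes. In D218G 1 was higher, beside 10.3% of all genes. Alas2 was -0.31 from WT in R216Q, -0.39 in R216W and -0.54 in D218G. Uros was also -0.86 from WT in R216Q and in R216W, and Alad was -0.35 from WT in R216Q, so both were outside the rule. Abcb6, another mitochondrial transporter named with Abcb10, was -1.28 in D218Y (adjusted p = 3.65e-12) and -0.84 in R216Q.

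Nprl3 and Hbq1a are neighbours on chromosome 11, the only members with another member within 5 protein-coding genes. Nprl3 encodes a subunit of GATOR1, which restrains mTORC1, and its introns hold the enhancers of the alpha-globin genes in mice. It read 9.30, 9.27 and 9.20 in D218Y, 10.01 to 10.21 over the other mutants' arrays, and 10.24, 10.25 and 10.30 in WT. The D218Y arrays were apart from the rest, with a difference of -1.0, the smallest of the 28. The GATOR1 partner Nprl2 differed by -0.02 (adjusted p = 0.825, limma).

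Hbq1a, a theta globin gene, read 4.69, 5.10 and 4.70 in D218Y, 5.64 to 5.86 over the other mutants' arrays, and 6.07, 5.90 and 5.89 in WT. Its D218Y arrays were 1.12 below WT on average, and the other mutants were 0.16 to 0.21 below. Its near-identical copy Hbq1b read higher, at 7.17 in D218Y and 9.42 in WT, a difference of -2.25 (adjusted p = 1.72e-11). Hbq1b was also below WT in the other mutants, at -0.77 in R216Q, -0.46 in R216W and -0.72 in D218G. Signal from the pair could not be separated, so the level of either is uncertain. All 4 other measured globin genes fell in D218Y, and all 4 were lower than the mean of the other mutants: Hba-x, the embryonic alpha-like gene, fell by 3.00 (1.41e-13), Hbb-y by 1.91 (1.34e-09) and Hbb-bh1 by 1.76 (1.93e-09). Hba-a1 and Hba-a2 were not used here.

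In the order of genes along the chromosome, Mpg and Rhbdf1 next to Nprl3 were at -0.47 (adjusted p = 1.31e-05) and -0.20 (0.0252) in D218Y, and Snrnp25 was at -0.86 (5.38e-09). The Rhbdf1 call was lost under quantile normalization (adjusted p = 0.13, limma). Il9r, a cytokine receptor beyond them, was -1.10 in D218Y, 0.96 in R216Q, 1.79 in R216W and -1.42 in D218G. On the other side of Hbq1a, Sh3pxd2b was at -0.09 (0.589). The largest differences in D218Y were at Hba-x and Hbq1b, which lie between Nprl3 and Hbq1a. Hba-x was also low in the other mutants, at -1.99 in R216Q, -0.53 in R216W and -2.03 in D218G.

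**Figure D4:**
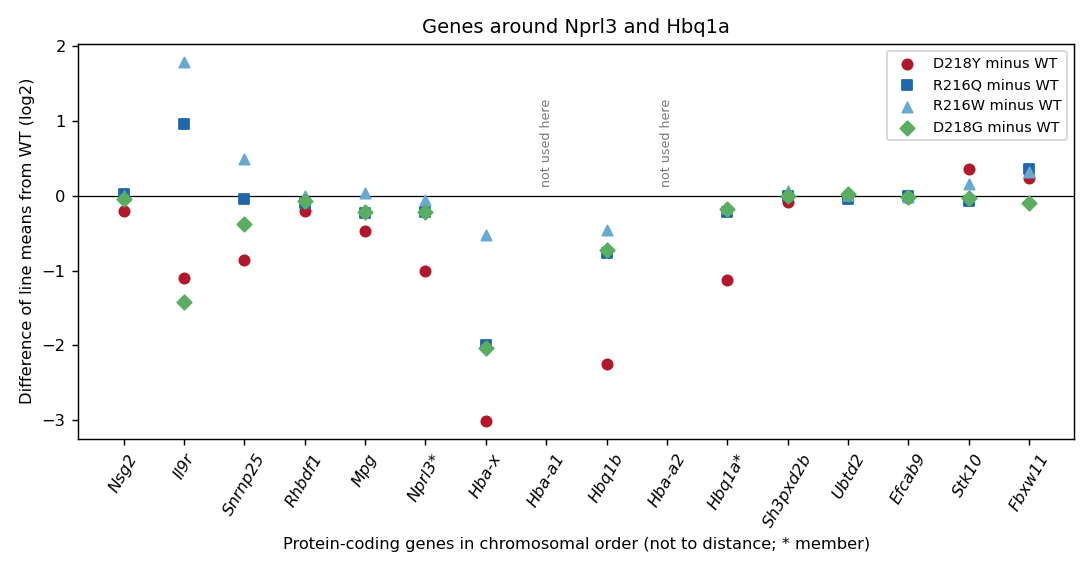
Difference from WT on the log2 scale (y axis) in D218Y, R216Q, R216W and D218G for protein-coding genes around Nprl3 and Hbq1a in their RefSeq order (x axis, not to distance), with an asterisk at each member and no points for Hba-a1 and Hba-a2, which were not used here. The D218Y values are lowest at Hba-x, at -3.00, where R216Q and D218G are also low, and are near 0 from Sh3pxd2b, at -0.09, onward to Efcab9.

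The other lowered genes have varied roles. Cdr2, a cytoplasmic antigen of paraneoplastic disease, read 9.92, 9.86 and 9.83 in D218Y, 10.80 to 10.87 over the other mutants' arrays, and 10.96, 10.96 and 11.07 in WT. Acbd5, which holds peroxisomes to the endoplasmic reticulum, read 7.81, 7.69 and 7.84 in D218Y, 8.54 to 8.97 over the other mutants' arrays, and 8.85, 9.05 and 8.80 in WT. Neither gene's D218Y arrays overlapped with another line, and their differences were -1.13 and -1.12.
Ston2, an adaptor of endocytosis, read 9.12, 9.09 and 9.09 in D218Y, 9.98 to 10.34 over the other mutants' arrays, and 10.20, 10.16 and 10.21 in WT. It was the only lowered gene whose arrays in R216Q and R216W were all above those of WT. Hectd4, which has a ubiquitin ligase domain, read 10.93, 10.91 and 10.90 in D218Y, 11.77 to 11.97 over the other mutants' arrays, and 11.99, 11.97 and 11.97 in WT. It was the only one of the 28 genes with more than 1 probe set, and its other 2 probe sets differed by -1.2 and -1.17 in D218Y. Tnrc18, a chromatin protein, read 7.86, 7.80 and 7.79 in D218Y, 8.66 to 8.94 over the other mutants' arrays, and 8.92, 8.76 and 8.82 in WT. Its difference of -1.01 was near the limit.

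Array levels of different probe sets are not comparable as amounts of RNA, so the following places the members on the scale of the arrays alone. The median of the raised genes was 7.79 in D218Y and 6.59 in WT, and in WT 9 of the 19 lay below the median of all genes. The median of the lowered genes was 9.26 in D218Y and 10.26 in WT, and in WT 8 of the 9 lay above the median of all genes.

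**Figure D5:**
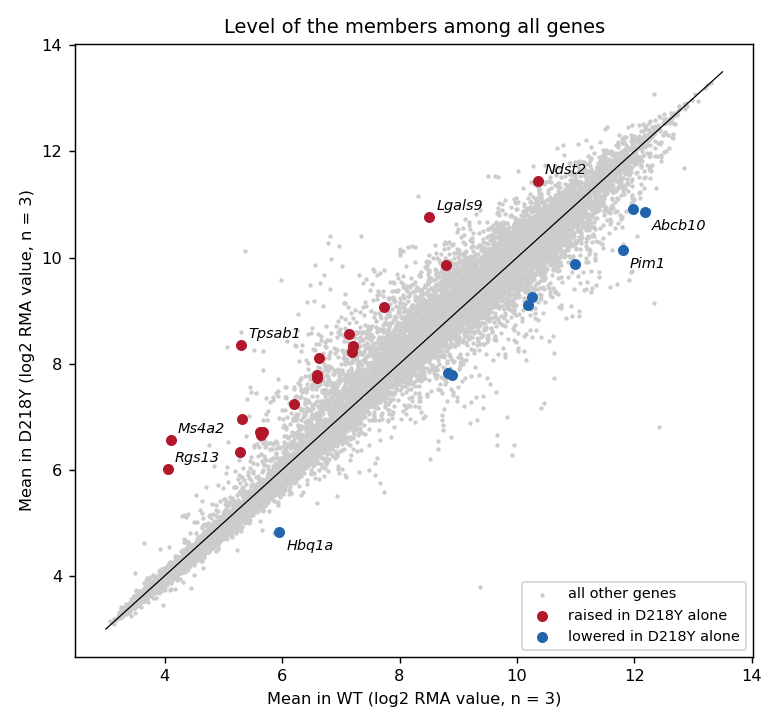
Mean level in D218Y (y axis) against mean level in WT (x axis), both on the log2 scale with n = 3, for the raised genes (red), the lowered genes (blue) and all other genes (grey), with a line at equal levels. The lowered genes sit mostly at high WT levels, with Hbq1a the exception, and the raised genes spread over the range from 4.05 to 10.35 in WT.

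In D218Y all 28 genes passed the limma test against WT, as did 44.4% of all genes, and in all 28 the D218Y arrays lay outside the range of the 12 other arrays, as in 24.9% of all genes. All 28 were also called between D218Y and D218G, as were 33% of all genes, and between D218Y and the mean of the other 3 mutants, as were 39.8%. Against that mean the raised genes were 0.81 to 3.06 higher and the lowered genes ranged from -1.55 to -0.84. These counts follow largely from the rule and are given as a description. In R216Q, where 21.5% of all genes were called, 11.8% higher and 9.65% lower, 2 of the 19 raised and 5 of the 9 lowered members were called, all lower. In R216W, with 16.6% called, 9.36% higher and 7.23% lower, 1 raised member was called higher and, of the lowered members, 1 was called higher and 1 lower. In D218G, with 18.1% called, 10.3% higher and 7.77% lower, 3 raised members were called higher and 1 lower, and 4 lowered members were called lower. The rule held these differences under 0.25, so nothing is read from these counts. The lowered members lay below WT in 8 of 9 cases in R216Q, 7 of 9 in R216W and 9 of 9 in D218G, and the raised members above WT in 11 of 19 in each line. Over all genes the median difference from WT was -0.01 in R216Q, -0.02 in R216W and -0.02 in D218G. The share of all genes on each side of WT was not computed. The lines share the WT arrays, so these counts are not independent of each other, and nothing is read from them.

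Next to the limits, the closest members were Nprl3 at -1.0, Cth at 1.01 and Tnrc18 at -1.01 in D218Y, and Scd1 at 0.99, Samd14 at -0.99 and Akap5 at 0.99 were just outside. For the limit in the other lines, Marcksl1 at 0.25, Ttc7b at 0.23 and Acbd5 at -0.23 were just inside, and Mir6516 and Dusp7 at 0.26 in D218G were just outside, with Limd2 at 0.26. Of the 28 genes, 6 were past 0.2 in at least 1 other mutant. The members lay on 13 chromosomes, and of 245 other genes measured within 5 places of a member 11 were at least 2-fold away from WT in D218Y (4.49%), beside 3.57% of all genes.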

How the data were processed

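Each probe set has 1 deposited value per array, on the log2 scale. The authors made these log2 values with RMA in a workflow that names Partek 6.6, per the submitters' processing notes; the sources used here name no RMA version, settings or genome build. RMA makes array distributions alike and compresses changes of dim genes. Array values have no depth, so replicate number limits the precision. Of 28350 probe sets, 21780 had 1 symbol, 1618 several and 4952 none. Probe sets with 1 symbol were used, the highest by mean over 15 arrays where a gene had several (996 genes), giving 19933 genes, with no filter on low values. Groups came from the array titles, so the p-values reflect replicate spread within these lines.

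The fit was limma 3.58.1 in R 4.3.3, with 1 mean per line over all arrays, eBayes and Benjamini-Hochberg adjustment over all 19933 genes (two-sided, called at an adjusted p under 0.05). Rose and fell are used of genes past it, and the script was first tested on simulated data. Deviations of same-numbered replicates from their line means had correlations of mixed sign, from -0.50 to 0.41. Replicates of different numbers were not compared, so these values do not settle whether the numbers pair the arrays. Promoters came from RefSeq (25 members matched), and gene order from RefSeq for 27 members. Every member is accounted for: array values are given for the 10 largest rises and falls, for members of a fixed list and for those with a family gene past 2-fold, and for Ndst2 and Sgk1, added after their values were seen. At most 4 other genes per list, those with the largest called changes, fall under the rule, and further relatives were named after their values were seen. The members and lists were chosen with earlier results of these data known. Alternatives were other normalizations, probe set rules, thresholds, a filter on low values, variance models, the compared arrays alone, a replicate block and each array left out.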

Additional observations from a re-analysis of the deposited data

Results flagged for a closer look

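For 6 of the 28 genes, every array of another mutant lay on the opposite side of WT from every D218Y array. The gaps are small and the difference between the lines was not tested, because the rule that chose the genes used both comparisons. The share of all genes with such a pattern was not computed, so nothing is read from the count of 6. Among the raised genes, Ndst2 was -0.173 from WT in R216Q, -0.0663 in R216W and -0.164 in D218G, where it was 1.08 in D218Y. Mmd was -0.11 in R216Q and -0.10 in R216W, beside 1.07 in D218Y. Lgals9 was -0.17 in R216Q beside 2.26 in D218Y, Abca1 -0.14 in R216Q beside 1.04, and Tgfb3 -0.0839 in R216W beside 1.09. Among the lowered genes, Ston2 was 0.0702 in R216Q and 0.12 in R216W, beside -1.09 in D218Y. Groups of 3 arrays were not searched for single outlying arrays.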

How the results depend on the processing

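The set of 19 raised and 9 lowered genes depended on its limits. Subtracting array medians left 5 lowered (24 raised). A limit of 0.3 in the other lines gave 34 raised and 17 lowered, and 0.5 gave 174 and 73. A D218Y limit of 0.8 gave 41 and 25, and 1.2 gave 8 and 2. Genes above the median gene gave 10 raised (8 lowered). Leaving out 1 array gave 17 to 30 raised and 7 to 10 lowered; the 30 came without D218G replicate 3, which added 11 genes, among them Itpkb (2.39 in D218Y and 0.27 in D218G with all arrays). In all, 18 of the 28 genes were kept in each of the 15 leave-one-out runs, and 14 there and under 4 other normalizations or probe set rules.

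Called genes with array medians subtracted numbered 2098 in R216W (3308 as reported) and 2358 in D218G (3601 as reported), and with the compared arrays alone 2106 in D218G. Without 1 array they ranged from 7220 to 10134 for D218Y against WT (8857), 3682 to 4681 for R216Q (4283), 2657 to 3753 for R216W, 2931 to 3598 for D218G, 5542 to 9176 for D218Y against D218G (6583) and 6214 to 10108 for D218Y against the mean of the other 3 (7936). Of the 15 other mast cell genes, the 4 called lower were 1 under quantile normalization, cyclic loess or array medians, 0 above the median gene and 2 to 5 without 1 array, and the 4 called higher were 2 above the median gene and 3 to 4 without 1 array. The 5 TGF-beta and BMP genes called lower were 3 above the median gene and 4 to 6 without 1 array, and the 9 called higher were 8 above the median gene or under quantile normalization, 10 under cyclic loess and 9 without 1 array. The counts of 4 globin genes and 8 and 1 haem genes did not move without 1 array.

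The replicate block gave 8305 genes for D218Y against WT and 2 mast cell genes lower, with no other count moved by over 1.5 times. Whether the numbers pair the arrays was not settled. Over 3850 recomputed values of named genes outside the 28, 135 lost and 21 gained the call and 0 reversed; Srgn lost it in 9 of 22. The causes were not tested. Low signal limits Ms4a2, Rgs13, Tpsab1, Ajuba and Mmd outside D218Y, and Mcpt1, Mcpt2, Fcer1a and Hbq1a. The WT means of Ajuba and Mmd lay at percentiles 26.5 and 25.6 of all genes. Those of Tgfb3, Cth and Marcksl1 were also low, at 32.3, 32.7 and 33.5.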

Other observations

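Probe sets with several symbols or none were outside the choice of the 28 genes. Under the same limits, 2 of the 1618 probe sets with several symbols were lowered in D218Y alone and 0 were raised. Of the 4952 with no symbol listed, 3 were raised and 2 were lowered. They are unnamed here.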
